A study of Mus musculus with 6 samples.

Results

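The genes described here are 9 that carry the insulin and IGF signal from the cell surface to phosphoinositide 3-kinase (PI3K): the receptors Insr and Igf1r, the receptor substrates Irs1 and Irs2, the PI3K catalytic subunits Pik3ca, Pik3cb and Pik3cd, and the regulatory subunits Pik3r1 and Pik3r2. They were picked by symbol, not by their values, out of 55335 genes in the tables, and all 9 passed the filter on low counts. They were compared in B16-BL6 mouse melanoma cells that had received a CRISPR-Cas9 vector with a guide against Ifngr1 (IFNγR1KO, n = 3 cultures) or one with a guide against GFP (scrambled control, labelled as wild type, n = 3 cultures). The cells of both groups had been transduced with a lentivirus and selected with puromycin, and no treatment is named for these libraries. The study worked with single IFNγR1KO clones, and nothing in the labels says whether the 3 IFNγR1KO cultures came from 1 clone, so the p-values measure the spread between cultures and not between clones. The study design names activation of the PI3K-Akt-mTOR pathway in IFNγR1KO cells as its question, and RNA counts hold no measure of kinase activity.

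When insulin or an insulin-like growth factor binds, the receptor tyrosine kinase phosphorylates the IRS adaptor proteins, and the phosphorylated IRS proteins are held by the SH2 domains of the PI3K regulatory subunit. The regulatory subunit stabilizes the catalytic subunit and keeps it inactive until it is recruited, after which the catalytic subunit makes the membrane lipid PIP3 that brings Akt to the membrane. In melanoma this pathway is known for driving growth and survival, and IRS proteins and PI3K subunits are also set at the level of transcription, for example through FoxO factors that raise receptor and Irs2 expression when Akt activity is low.

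Sequences upstream of the start sites are shown for the genes whose amounts differed between the groups and, beside Irs1, for its paralog Irs2. The RefSeq (GRCm38.p6) starts used here covered 8 of the 9 genes, all but Insr, in 11 windows. The 250 bases before each start were searched on both strands for 5 motifs: the STAT element GAS (TTCNNNGAA), the ISRE core, a FoxO element (GTAAACA), the core of the ATF4 element CARE (TGATGNAA) and the E-box (CACGTG), the last added after the sequences had been seen. Matches are in capitals. The 5 sequences, each 5′ to 3′ on the strand of its gene, lie outside annotated exons.
Irs1, chr1:82291440-82291689, minus strand: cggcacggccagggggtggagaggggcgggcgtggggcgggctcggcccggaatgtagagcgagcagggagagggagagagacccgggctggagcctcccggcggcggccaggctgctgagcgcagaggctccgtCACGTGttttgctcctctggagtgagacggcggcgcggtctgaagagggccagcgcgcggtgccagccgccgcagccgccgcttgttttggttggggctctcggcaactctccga
Irs2, chr8:11008930-11009179, minus strand: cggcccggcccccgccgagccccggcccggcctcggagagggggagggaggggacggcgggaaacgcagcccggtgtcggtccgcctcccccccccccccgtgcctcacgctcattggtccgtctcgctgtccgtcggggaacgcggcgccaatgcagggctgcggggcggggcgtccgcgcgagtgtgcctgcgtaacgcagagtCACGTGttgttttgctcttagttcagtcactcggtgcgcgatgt
Pik3cd, most upstream of 3 starts, chr4:149698709-149698958, minus strand: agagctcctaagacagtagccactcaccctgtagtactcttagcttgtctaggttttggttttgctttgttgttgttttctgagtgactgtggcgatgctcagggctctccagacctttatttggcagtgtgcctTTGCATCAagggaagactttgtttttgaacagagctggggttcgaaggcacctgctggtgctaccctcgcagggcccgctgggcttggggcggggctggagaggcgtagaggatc
Pik3r1, upstream start, chr13:101768218-101768467, minus strand: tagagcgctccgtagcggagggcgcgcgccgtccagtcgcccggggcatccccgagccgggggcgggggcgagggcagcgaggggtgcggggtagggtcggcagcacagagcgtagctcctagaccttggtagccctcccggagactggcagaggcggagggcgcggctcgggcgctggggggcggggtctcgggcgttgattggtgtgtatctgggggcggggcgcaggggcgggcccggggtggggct
Pik3r1, internal start, chr13:101692631-101692880, minus strand: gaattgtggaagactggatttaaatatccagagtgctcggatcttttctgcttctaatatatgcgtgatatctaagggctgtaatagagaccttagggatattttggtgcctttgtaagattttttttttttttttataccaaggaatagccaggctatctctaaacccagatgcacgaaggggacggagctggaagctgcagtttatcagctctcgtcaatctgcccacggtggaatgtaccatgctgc
Irs1 and Irs2 each held 1 E-box, from 115 to 110 bases before the start in Irs1 and from 44 to 39 bases before it in Irs2, where 6.02% of 32851 windows of all genes held one. The RefSeq start of Irs2 lies upstream of the start of this gene in the GENCODE M21 annotation (chr8:11008458), so the distance in Irs2 holds for the RefSeq start only. The window shown for Pik3cd held the reverse complement of the CARE core from 115 to 108 bases before the start, a match found in 3.45% of all windows. The windows of the other Pik3cd starts held no match of any motif. The start shown lies inside the gene as annotated in GENCODE M21, where the gene begins at chr4:149702571. The distance in Pik3cd therefore also holds for the RefSeq start only. No GAS, ISRE or FoxO match was found in the 11 windows, where 7.02%, 2.98% and 3.17% of all windows held one. The windows also differed in base composition. Those of Irs1 and Irs2 held 72.4% and 72.8% G and C, with 28 and 34 CpG dinucleotides. The E-box itself holds a CpG, and its share among windows of like composition was not computed. The upstream start of Pik3r1, with 76.4% G and C, held 30 CpG dinucleotides and its internal start, with 42.4%, held 6, where the median over all windows was 52.4% with 6 CpG. Counts per gene do not tell which of these starts was used.

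The scrambled control libraries held 9402640 to 10579788 counts on genes and the IFNγR1KO libraries 6698956 to 7409479. Values are given as deposited counts, as CPM, the counts scaled to the size of each library with TMM factors, and, where genes are compared with each other, as CPM per kilobase of exon (RPKM). Ifngr1 itself had 144 to 172 counts in scrambled control and 80 to 85 in IFNγR1KO libraries, with groups that did not overlap (log2 fold change -0.47, adjusted p = 0.0729 by the quasi-likelihood test of edgeR), so the transcript was still counted. All 9 melanocyte lineage markers were present, with a summed level of 33000 to 35930 CPM in scrambled control and 28850 to 33740 CPM in IFNγR1KO libraries, and edgeR called 0 of them, with an unadjusted p under 0.05 for 2, while DESeq2 called 1 and limma-voom 0. Of 14 markers of leukocytes, endothelium, epithelium and fibroblasts, 12 were below the filter and 6, among them Cd3e, Itgam, Adgre1, Cdh5 and Lum, had no count in any library. Their summed level was 56.2 to 74.8 CPM in scrambled control and 125 to 127 CPM in IFNγR1KO libraries, most of it Col1a2, a fibrillar collagen gene that rose by 1.07 on the log2 scale (adjusted p = 0.00048 from edgeR). The only other marker of this list above the filter, the fibroblast marker Pdgfra, had 38, 32 and 36 counts in scrambled control and 17, 13 and 15 in IFNγR1KO libraries (log2 fold change -0.77, adjusted p = 0.0866 from edgeR). Their part in the results was not tested. Scrambled control replicate 3 and IFNγR1KO replicate 12 stood apart from the other libraries of their groups. Among tested genes with more than 6366.5 exonic bases they were higher than the other 2 libraries of their group by a median of 0.23 and 0.20 on the log2 scale, and among as many of the shortest genes they were lower by 0.23 and 0.21. Of the 9 genes described here, 6 are in this longest set, 8 were highest in replicate 3 among the scrambled control libraries and 7 were highest in replicate 12 among the IFNγR1KO libraries. This unevenness was present in both groups. Fits without these libraries are given below for the genes called and for Pik3cb, Igf1r and Irs2, and shares within families are given with all libraries. The log2 fold change of Insr was 0.61 without replicate 3 and 0.25 without replicate 12, and that of Pik3ca was -0.21 and -0.44.

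Irs1 and Pik3cd were lower and Pik3r1 was higher in IFNγR1KO cells, whereas Irs2 and the other subunits and receptors did not pass the test. Irs1 was at 24.3% of its scrambled control level, Pik3cd at 52.0% and Pik3r1 at 168%. Irs1 had passed the filter on low counts through its scrambled control libraries only. These 3 of 9 genes passed an adjusted p of 0.05 by this test, beside 15.3% of all 13642 tested genes (7.73% higher and 7.62% lower). Whether 3 of 9 differs from this background was not tested. Their groups were also the only ones of the 9 that did not overlap, beside 32.6% of all tested genes. Irs1 alone also passed the limit of 1 on the absolute log2 fold change that the study used for differentially expressed genes, which 5.2% of all tested genes passed (1.96% lower and 3.25% higher). The median log2 fold change of the 9 genes was -0.24, against 0.00 for all tested genes, with 7 lower and 2 higher estimates. DESeq2's Wald test and limma-voom each called 3 of the 9, beside 13.2% and 15.2% of the genes they tested.

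**Figure D1:**
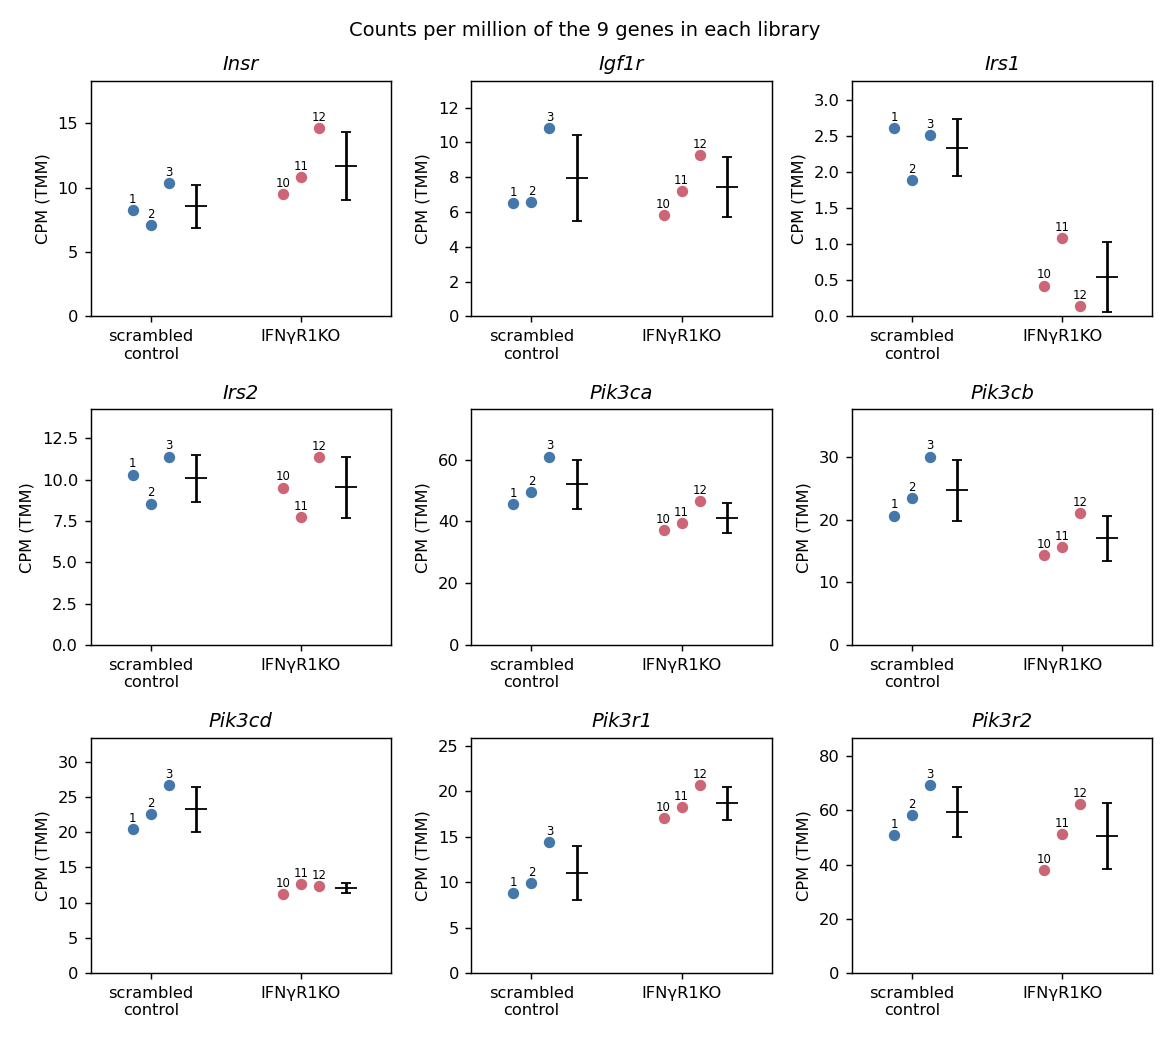
CPM (vertical axis, linear, from 0) of the 9 genes in each library, with replicate numbers beside the points; the bar to the right of each group is the mean with its SD (n = 3). The 2 groups are separate for Irs1, Pik3cd and Pik3r1 and overlap for the other 6 genes, and replicates 3 and 12 are the highest of their groups for most genes.

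Of the receptors, Insr, which binds insulin, had 76, 71 and 107 counts in scrambled control replicates 1, 2 and 3, and 67, 80 and 104 in IFNγR1KO replicates 10, 11 and 12. At 8.55 ± 1.66 CPM against 11.7 ± 2.65 CPM (SD, n = 3 each) the groups overlapped, since replicate 10 lay below replicate 3. The log2 fold change of Insr was 0.44 (95% interval -0.03 to 0.92, adjusted p = 0.204 from edgeR). Igf1r, the receptor for IGF1 and IGF2, had 60, 66 and 112 counts in scrambled control and 41, 53 and 66 in IFNγR1KO libraries. Its levels of 7.97 ± 2.47 CPM and 7.43 ± 1.74 CPM (SD, n = 3 each) were spread more widely within the groups than between them. The log2 fold change of Igf1r was -0.11, with a 95% interval of -0.66 to 0.45 (adjusted p = 0.835 from edgeR), and its sign changed when scrambled control replicate 3 was left out (0.18). The interval for Insr still allows an increase close to 2-fold, and that for Igf1r a change of either sign.

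The share of Insr among the receptor RNA does not depend on the scaling between libraries. Scaled by exon length, Insr made up 60.7%, 56.8% and 53.9% of the sum of Insr and Igf1r in scrambled control libraries, and 66.6%, 64.8% and 65.8% in IFNγR1KO libraries. The lowest IFNγR1KO library was thus above the highest scrambled control library, with means of 57.1% ± 3.46 and 65.8% ± 0.895 (SD, n = 3 each; two-sided exact permutation test, p = 0.1, adjusted p = 0.117 over 7 such measures). A p of 0.1 is the smallest that 3 libraries against 3 can give, so none of these 7 measures could have passed 0.05.

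Irs1 encodes the receptor substrate through which insulin and IGF1 receptors engage PI3K in muscle, fat and many tumor cells. It lies on the minus strand of chromosome 1 (GRCm38, 82233101 to 82291416) and had 24, 19 and 26 counts in scrambled control libraries and 3, 8 and 1 in IFNγR1KO libraries. The IFNγR1KO counts were all below the filter's minimum count of 10, so Irs1 was tested only because it was higher in scrambled control. Every IFNγR1KO library was below every scrambled control library, at 0.550 ± 0.484 CPM against 2.34 ± 0.389 CPM (SD, n = 3 each), and the IFNγR1KO libraries differed widely among themselves. The log2 fold change was -2.04 (standard error 0.49, 95% interval -3.11 to -0.97, adjusted p = 0.0154 from edgeR). The 69 summed counts of scrambled control against 12 of IFNγR1KO libraries are a 4.18-fold difference after scaling, with an exact conditional binomial 95% interval from 2.25 to 8.48 that covers counting error only. Without IFNγR1KO replicate 10 the adjusted p was 0.065, with a log2 fold change of -1.89. Without replicate 12, the library with 1 count, the log2 fold change was -1.6 and the adjusted p 0.0254, and without replicate 11 the log2 fold change was -2.97. Leaving out replicates 3 and 12 together gave -1.54 (adjusted p = 0.0387 from edgeR).

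Gm9747, annotated as a protein-coding gene, lies wholly inside exons of Irs1 on the other strand and covers 30.9% of them. It had 7, 2 and 7 counts in scrambled control and 0, 1 and 0 in IFNγR1KO libraries, too few to be tested. The strand setting of the counting is not given in the sources used here. Gm9747 had counts of its own although it lies wholly inside exons of Irs1, and whether these were reads of Irs1 was not tested.

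Irs2, the other IRS gene of these cells, encodes the substrate that is prominent in liver and pancreatic islets. It had 95, 86 and 118 counts in scrambled control and 67, 57 and 81 in IFNγR1KO libraries. The levels of Irs2, 10.1 ± 1.44 CPM and 9.54 ± 1.83 CPM (SD, n = 3 each), overlapped almost fully. Its log2 fold change was -0.08 (95% interval -0.53 to 0.36, adjusted p = 0.839 from edgeR), so a fall of the size seen for Irs1 lies outside the interval. Irs1 accordingly made up 14.9%, 13.2% and 13.2% of the length-scaled sum of Irs1 and Irs2 in scrambled control and 3.0%, 8.85% and 0.847% in IFNγR1KO libraries. The 2 groups did not overlap (13.8% ± 0.944 against 4.23% ± 4.14, SD, n = 3 each; exact permutation test, p = 0.1). Irs2 was thus the main IRS transcript in both groups, and the summed IRS level per kilobase, 1.85 ± 0.265 RPKM against 1.57 ± 0.239 RPKM (SD, n = 3 each), overlapped between the groups. Of the other IRS genes, Irs3 had 0 to 3 counts per library and Irs4 had none.

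**Figure D2:**
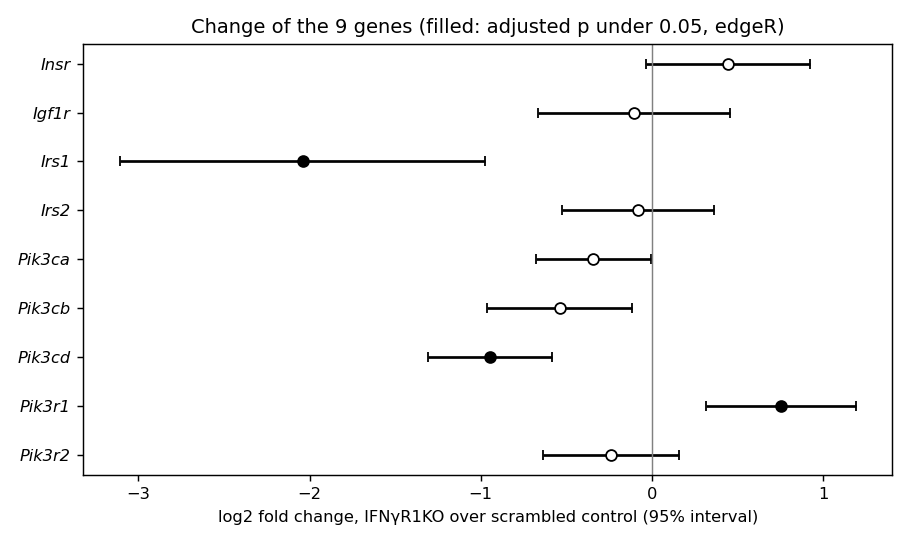
Log2 fold change of IFNγR1KO over scrambled control (horizontal axis) of the 9 genes, with 95% intervals from edgeR's quasi-likelihood fit over 3 libraries a group. Filled points had an adjusted p under 0.05: Irs1 at -2.04, Pik3cd at -0.94 and Pik3r1 at 0.75; the widest interval is that of Irs1, the gene with the fewest counts.

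Each of the 3 class IA catalytic subunits had a lower estimate in IFNγR1KO cells, and one of them, Pik3cd, passed the test. Pik3cd encodes p110δ, which is best known from leukocytes. It lies on chromosome 4 (GRCm38, 149649168 to 149702571) and had 188, 227 and 276 counts in scrambled control and 79, 93 and 88 in IFNγR1KO libraries. At 23.2 ± 3.18 CPM against 12.1 ± 0.737 CPM (SD, n = 3 each), the highest IFNγR1KO library was well below the lowest scrambled control library. The log2 fold change was -0.94 (standard error 0.17, 95% interval -1.31 to -0.58, adjusted p = 0.00276 from edgeR). It ran from -1.03 to -0.83 when single libraries were left out, with an adjusted p from 0.00112 to 0.0175, and was -0.85 without replicates 3 and 12. The leukocyte markers Ptprc, Cd3e, Itgam and Adgre1 were at 0 in all libraries apart from 1 count of Ptprc in scrambled control replicate 1, so the Pik3cd counts stood beside almost no RNA of these markers.

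Pik3ca encodes p110α, the subunit through which insulin and growth factor receptors mostly signal. It had 420, 497 and 631 counts in scrambled control and 262, 291 and 331 in IFNγR1KO libraries, and its groups overlapped only through replicate 12. The level of Pik3ca was 52.0 ± 8.0 CPM against 41.1 ± 4.87 CPM (SD, n = 3 each), and its log2 fold change was -0.34 (95% interval -0.68 to -0.01, adjusted p = 0.163 from edgeR). Pik3cb encodes p110β, which also responds to G protein-coupled receptors. It had 190, 235 and 311 counts in scrambled control and 101, 115 and 150 in IFNγR1KO libraries. At 24.7 ± 4.85 CPM against 17.0 ± 3.59 CPM (SD, n = 3 each), Pik3cb also overlapped only through replicate 12. The log2 fold change of Pik3cb was -0.54 (95% interval -0.96 to -0.12, adjusted p = 0.0834 from edgeR). It passed without replicate 12 (-0.73, adjusted p = 0.0113), without replicates 3 and 12 together (-0.56, adjusted p = 0.0261) and without the filter on low counts (-0.57, adjusted p = 0.0234, edgeR in each case).

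Within the catalytic RNA, the share of Pik3cd was smaller and that of Pik3ca larger in each IFNγR1KO library than in any scrambled control library, although the level of Pik3ca itself had a lower estimate. Shares of 1 sum are not independent of each other. Pik3ca made up 45.0%, 44.2% and 44.3% of the length-scaled sum of the catalytic subunits in scrambled control libraries and 51.9%, 50.9% and 51.1% in IFNγR1KO libraries. The share of Pik3cd was 29.3%, 29.3% and 28.1% in scrambled control and 22.8%, 23.6% and 19.7% in IFNγR1KO libraries. For both shares the groups were apart by more than their spread (44.5% ± 0.435 against 51.3% ± 0.556 for Pik3ca, 28.9% ± 0.675 against 22.03% ± 2.06 for Pik3cd, SD, n = 3 each; exact permutation test, p = 0.1 for each). The share of Pik3cb, 26.6% ± 0.935 against 26.7% ± 2.23 (SD, n = 3 each; exact permutation test, p = 1), overlapped. Replicate 12 lay apart from the other IFNγR1KO libraries in the shares of Pik3cd (19.7% against 22.8% and 23.6%) and Pik3cb (29.2% against 25.3% and 25.4%), and not in that of Pik3ca.

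Pik3r1, which encodes p85α and its shorter forms p55α and p50α and is usually the main regulatory subunit, was higher in IFNγR1KO cells. It lies on chromosome 13 (GRCm38, 101680563 to 101768217) and had 81, 100 and 149 counts in scrambled control and 120, 135 and 147 in IFNγR1KO libraries. Because the IFNγR1KO libraries were smaller, these are 8.79, 9.95 and 14.4 CPM against 17.1, 18.3 and 20.7 CPM, and the groups did not overlap. The means were 11.0 ± 2.96 CPM and 18.7 ± 1.84 CPM (SD, n = 3 each), and the log2 fold change was 0.75 (standard error 0.20, 95% interval 0.31 to 1.19, adjusted p = 0.0256 from edgeR). The call was lost in 3 of the 6 fits that left out 1 library. The adjusted p of Pik3r1 was 0.084 without scrambled control replicate 1, 0.111 without replicate 2 and 0.0727 without IFNγR1KO replicate 11, with log2 fold changes of 0.61, 0.68 and 0.78. Without scrambled control replicate 3 it was 0.99 (adjusted p = 0.00243), and without replicates 3 and 12 together 0.91 (adjusted p = 0.00196, edgeR in each case).

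Pik3r2, which encodes p85β, had 469, 584 and 716 counts in scrambled control and 267, 378 and 442 in IFNγR1KO libraries. Its levels of 59.4 ± 9.21 CPM and 50.4 ± 12.1 CPM (SD, n = 3 each) overlapped, with a log2 fold change of -0.24 (95% interval -0.63 to 0.16, adjusted p = 0.439 from edgeR). Pik3r1 made up 6.68%, 6.62% and 7.94% of the length-scaled sum of Pik3r1 and Pik3r2 in scrambled control and 15.7%, 12.9% and 12.1% in IFNγR1KO libraries. The means of 7.08% ± 0.743 and 13.6% ± 1.89 (SD, n = 3 each; exact permutation test, p = 0.1) differed by more than the spread within groups, and Pik3r2 remained the more abundant of the pair in every library.

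**Figure D3:**
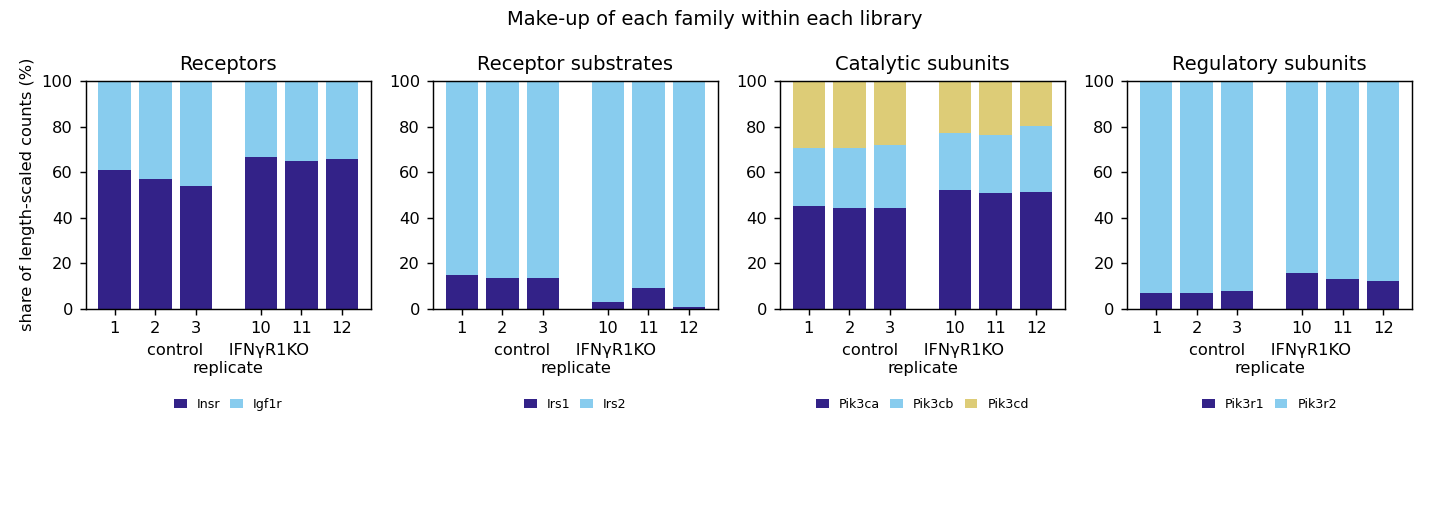
Stacked bars give, for each library (replicate number on the horizontal axis, scrambled control on the left and IFNγR1KO on the right of each panel), the share in percent of each gene in the length-scaled counts of its family. Within IFNγR1KO libraries the shares of Irs1 and Pik3cd are smaller and those of Insr, Pik3ca and Pik3r1 larger than in every scrambled control library.

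Summed over a class, catalytic RNA was lower in each IFNγR1KO library than in any scrambled control library, at 11.2, 12.3 and 15.2 RPKM in scrambled control and 7.88, 8.52 and 10.0 RPKM in IFNγR1KO libraries. Regulatory RNA of Pik3r1 and Pik3r2 overlapped, at 13.1, 14.9 and 18.0 RPKM against 10.8, 14.1 and 16.9 RPKM. The log2 ratio of the catalytic to the regulatory sum was -0.25 ± 0.02 in scrambled control and -0.64 ± 0.17 in IFNγR1KO cells (SD, n = 3 each; exact permutation test, p = 0.1), without overlap. Adding Pik3r3, which encodes the regulatory subunit p55γ, moved the difference from -0.39 to -0.98, so its size depends on which subunits are counted. This addition was made after the value of Pik3r3 had been seen.

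Per kilobase of exon, Pik3r2 was the most abundant of the 9 transcripts in both groups (14.2 ± 2.21 RPKM in scrambled control, 12.1 ± 2.90 RPKM in IFNγR1KO cells, SD, n = 3 each). It was followed by Pik3ca at 5.72 ± 0.881 and 4.52 ± 0.535 RPKM. In scrambled control the order continued with Pik3cd (3.71), Pik3cb (3.43), Irs2 (1.6), Pik3r1 (1.10), Insr (0.622), Igf1r (0.475) and Irs1 (0.256 RPKM). The neighbours Pik3cd and Pik3cb, Irs2 and Pik3r1, and Insr and Igf1r overlapped there. In IFNγR1KO cells Pik3cb (2.36), Pik3cd (1.93) and Pik3r1 (1.85 RPKM) each overlapped the next in order. Irs2 (1.51 RPKM), which Pik3r1 overlapped, was separate from Insr (0.848 RPKM), and Igf1r (0.442) and Irs1 (0.0602 RPKM) were separate as well. Within libraries, Pik3r1 was below Irs2 in each of the 3 scrambled control libraries and above it in each of the 3 IFNγR1KO libraries.

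The other genes of the pathway were counted in lists written by role, beside the 15.3% of all tested genes that were called. Among other PI3K subunits and regulators, 5 of 11 were tested and 1 was called, Pik3r3. It had 788, 779 and 919 counts in scrambled control and 1111, 1035 and 1069 in IFNγR1KO libraries. Every IFNγR1KO library was above the scrambled control libraries, whose mean was 84.0 ± 5.82 CPM against 149 ± 8.84 CPM (SD, n = 3 each). On the log2 scale Pik3r3 rose by 0.83 ± 0.13 (standard error; adjusted p = 0.0013, edgeR), with a call in each of the 6 fits without 1 library. Per kilobase Pik3r3 was at 15.8 ± 1.10 RPKM in scrambled control and 28.2 ± 1.67 RPKM in IFNγR1KO cells (SD, n = 3 each), and its share of the regulatory sum with Pik3r1 and Pik3r2 was 51.0% ± 3.75 and 67.1% ± 5.64. The subunits Pik3cg, Pik3r5 and Pik3r6 of the leukocyte class IB enzyme had at most 1 count in any library.

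Ligand transcripts were nearly absent. The study cultured these cells in medium with serum, and ligand protein was not measured. Of 12 genes of ligands, IGF-binding proteins and the decoy receptor Igf2r, 6 had no count in any library, among them Ins1, Ins2, Igf1 and Igf2, and 2 were tested. A count of 0 allows up to 3 counts in a library, for counting error only. Igfbp4, a secreted inhibitor of IGF action, had 2032, 2649 and 2857 counts in scrambled control and 908, 1135 and 1211 in IFNγR1KO libraries. It was lower in every IFNγR1KO library, at 151 ± 20.8 CPM against 253 ± 29.1 CPM (SD, n = 3 each), and fell by 0.75 on the log2 scale (adjusted p = 0.00622 from edgeR). Igf2r, which clears IGF2, had a log2 fold change of -0.63 (adjusted p = 0.0628 from edgeR, 0.037 from DESeq2's Wald test).

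Among 28 adaptors that act next to the receptors, 20 were tested, 2 were higher and 1 was lower, with a median log2 fold change of -0.01. Gab1, a docking protein that also recruits PI3K, rose by 0.68 (adjusted p = 0.0336), Dok5, an IRS-related substrate, rose by 0.52 (adjusted p = 0.0407), and Dok1, which restrains signaling downstream of tyrosine kinases, fell by 0.48 (adjusted p = 0.0319, edgeR in each case). Gab1 was called in 1, Dok5 in 2 and Dok1 in 3 of the 6 fits without 1 library. Of 15 phosphatases that oppose the pathway, 11 were tested and edgeR called none. An unadjusted p under 0.05 was found for 3 of these 11, DESeq2 and limma-voom called 0, and edgeR with upper-quartile factors called 1.

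Of 16 genes of IRS turnover and IRS serine kinases, 13 were tested, 2 were higher and 2 lower, with a median of 0.04. Socs3, a STAT target whose product can lead IRS proteins to degradation, had 108, 140 and 150 counts in scrambled control and 53, 49 and 60 in IFNγR1KO libraries and fell by 0.83 on the log2 scale (adjusted p = 0.011 from edgeR). Prkcz fell by 1.26 with at most 34 counts a library (adjusted p = 0.0272 from edgeR, 0.0742 from DESeq2's Wald test). Prkcq, a kinase that phosphorylates Irs1 on serine, rose by 0.56 (adjusted p = 0.0192), and Rps6kb2 rose by 0.51 (adjusted p = 0.0489, edgeR for both, 0.0662 for Rps6kb2 from DESeq2's Wald test). Socs3 was called in 5, Prkcq and Prkcz in 3 and Rps6kb2 in 1 of the 6 fits without 1 library. The list held 0 called genes without replicate 11 and 1 without replicate 1. Of the 18 genes of the PDK1, Akt, FoxO and mTOR core, 17 were tested and edgeR called 0. An unadjusted p under 0.05 was found for 2 of them, Akt1 (log2 fold change -0.44) and Foxo3 (0.53), and DESeq2's Wald test called 1, Akt1, and limma-voom 0.

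Among 14 genes known as FoxO-regulated, 9 were tested and 5 were higher, with a median log2 fold change of 0.46 against 0.00 for all tested genes. Fbxo32, a ubiquitin ligase of muscle atrophy, had 13, 13 and 15 counts in scrambled control and 47, 28 and 24 in IFNγR1KO libraries and rose by 1.72 on the log2 scale (adjusted p = 0.00481). Cdkn1b, which encodes the cell cycle inhibitor p27, rose by 0.90 (adjusted p = 0.00476), and Cited2, a transcriptional coregulator, rose by 0.47 (adjusted p = 0.0235, edgeR in each case). Ccng2 and Klf15 were the other called genes. Of the 6 fits without 1 library, Fbxo32 and Cdkn1b were called in 6, Cited2 in 2, Ccng2 in 1 and Klf15 in 0, and between 2 and 4 genes of the list were called in each. The other 4 tested genes of the list were not called, and 3 of them had a lower estimate.

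**Figure D4:**
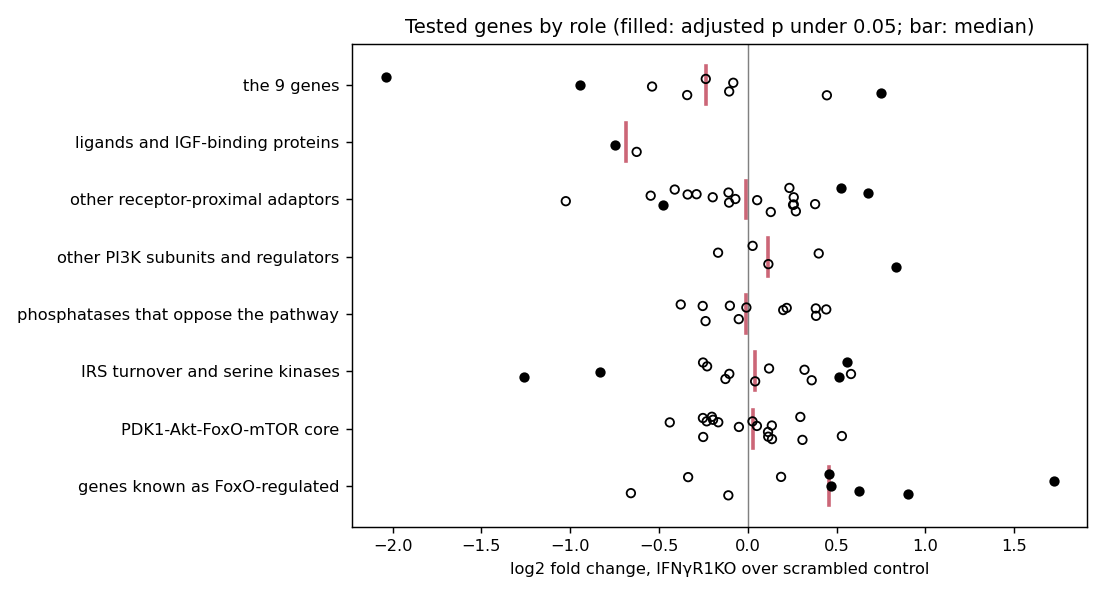
Log2 fold change of IFNγR1KO over scrambled control (horizontal axis) of each tested gene, by role; filled points had an adjusted p under 0.05 from edgeR, and the vertical bar is the median of the list. The 9 genes span -2.04 to 0.75, the phosphatases and the PDK1, Akt, FoxO and mTOR core hold no filled point, and the 5 filled FoxO-regulated genes are all on the right.

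Across the alternative tests, scalings and filters the signs of the 9 genes did not change, and changes of sign occurred in Igf1r and Irs2 when libraries were left out. Pik3cd was called in all 13 alternatives, Irs1 in 12 and Pik3r1 in 10.

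**Figure D5:**
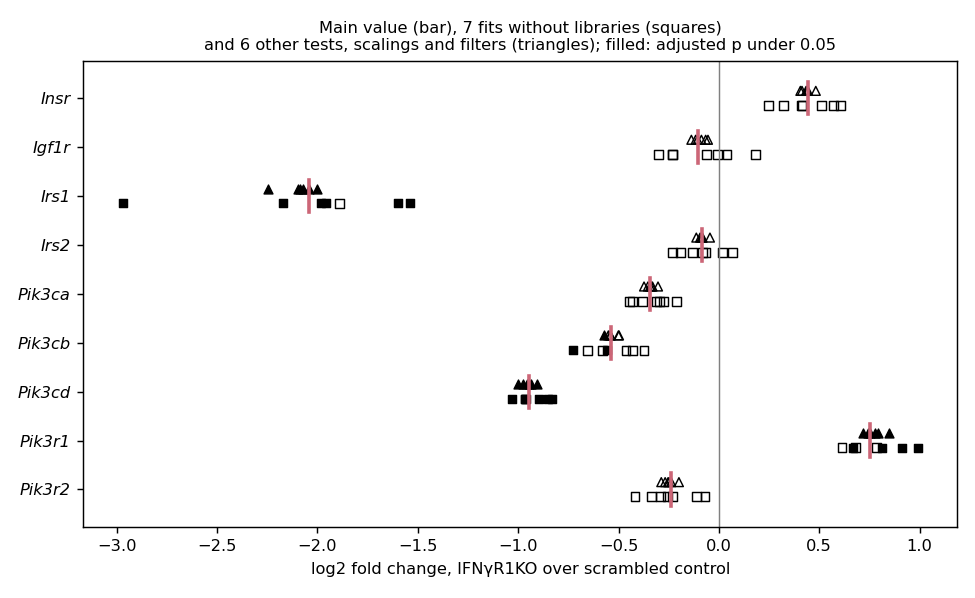
Log2 fold change of IFNγR1KO over scrambled control (horizontal axis) of the 9 genes in the main comparison (bar), in 7 fits that left out 1 library or replicates 3 and 12 together (squares) and in 6 fits with another test, scaling, filter or depth (triangles); filled symbols had an adjusted p under 0.05. The squares spread more widely than the triangles, and those of Irs1 run from -2.97 to -1.54.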

How the data were processed

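Total RNA of 3 scrambled control and 3 IFNγR1KO cultures, seeded in triplicate, was poly(A)-selected and sequenced in paired ends. Per the study's methods, the authors aligned reads to GRCm38 with STAR 2.7.5a. The deposited values are unnormalized read counts for each gene, made by the authors with htseq-count of HTSeq 0.11.2. The strand setting and annotation release are not given in the sources used here. Rows that name no gene held 53% to 54% of each library and were left out. Most of this was reads that the counting assigned to no feature, 46.9% to 47.7% of each library, beside 46% to 47% on genes. Whether the strand setting bears on this share was not tested.

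Counts were tested with edgeR 4.0.16 in R 4.3.3 (filterByExpr with a minimum count of 10, TMM factors, quasi-likelihood test, Benjamini-Hochberg over 13642 genes). DESeq2 1.42.0, the tool of the study's methods, and limma-voom (limma 3.58.1) were alternatives, beside other size factors, no filter, thinned libraries and fits without each library. The fit without replicates 3 and 12 and the ratio with Pik3r3 were added after seeing the data. Exon lengths and positions came from GENCODE M21, which holds 55154 of the 55335 genes. On simulated counts for this comparison edgeR recovered 96.9% of 191 changed genes of mixed fold size. Of its 195 calls over 13456 genes, 10 were false. Recovery at the fold sizes estimated for the genes described here, called or not called, was not tested separately.

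Named genes are the 9 genes, Ifngr1, overlapping genes, and up to 3 called genes in each direction per list by adjusted p. Igf2r, Akt1, Foxo3, Klf15, Ccng2 and Pdgfra were named after their values were seen. The genes and lists were chosen with earlier results of these data known. Protein features were not analysed here.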

Additional observations from a re-analysis of the deposited data

How the results depend on the processing

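No paired analysis was possible because the groups share no replicate numbers (1, 2 and 3 against 10, 11 and 12). Counts of called genes moved as follows, and the cause was not tested. DESeq2 called 2 ligand and binding protein genes, 2 of IRS turnover and 1 of the PDK1, Akt, FoxO and mTOR core. Upper-quartile factors gave 1 phosphatase and 1 core gene. No filter gave 3 ligand and binding protein genes, 2 core genes and 3 FoxO-regulated genes. Without replicates 3 and 12, 1447 genes were higher and 1617 lower, with 2 ligand and binding protein genes, 1 phosphatase, 2 core genes and 5 FoxO-regulated genes called. Leaving out 1 library gave 535 to 1372 genes higher and 457 to 1452 lower. Of the 9 genes, 0 to 1 were then higher and 1 to 3 lower. The lists then held 1 to 2 ligand and binding protein genes, 0 to 3 adaptors, 0 to 4 genes of IRS turnover, 0 to 1 core gene and 2 to 4 FoxO-regulated genes. The log2 fold change of Igf1r ran from -0.30 to 0.18 and turned in sign without replicate 3 (0.18) and replicate 10 (0.04). That of Irs2 ran from -0.23 to 0.066 and turned without replicate 3 (0.02) and replicate 11 (0.066). Without length scaling the differences in share were -12.8 percentage points for Irs1 and 11.9 for Pik3r1, and with Pik3r3 the log2 ratio of catalytic to regulatory RNA differed by -0.98. In IFNγR1KO libraries 1 count is 0.135 to 0.142 CPM, and Irs1 had 1 to 8 counts there. With libraries thinned to the smallest total Irs1 was at -2.10 (adjusted p = 0.0144 from edgeR).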

Other observations

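Over the 6 libraries, the genes whose log2 CPM followed Irs1 most closely were Zfp69 (Pearson r = 0.997), Aldh9a1 (0.995) and Paxip1 (0.995). Those closest to Pik3cd were Me1, Mcm10 and Ecm1 (0.996 each), and those closest to Pik3r1 were Gm23865 (0.996), Fbxo11 (0.996) and Gtf2a1 (0.994). With 6 libraries in 2 groups such values are common: 99, 438 and 129 of 13641 genes had an r above 0.95 with Irs1, Pik3cd and Pik3r1. These correlations are descriptions, since all points share the same libraries and the group difference.

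6330537M06Rik, which shares 45 exonic bases with Pik3r2 on the opposite strand, fell by 1.00 on the log2 scale (adjusted p = 0.00367 from edgeR), while Pik3r2 itself was not called.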
